A study of Mus musculus with 2 samples.

Results

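The subject is a set of 9 genes of the pericellular matrix and its remodeling, measured in the myeloid cells of B16F10 mouse melanomas. They were Spp1, Fn1, Thbs1, Tgfbi, Vcan, Inhba, Mmp12, Mmp14 and Plau, chosen by name as the rows of the count matrices that carry those symbols. These are 9 of the 27998 genes counted, and each symbol matched 1 row. B16F10 melanoma cells had been placed under the skin of C57BL/6 hosts, and live CD45+ cells, that is, leukocytes, were sorted from the tumors on day 14. The control hosts were Usp18f/f, with both copies of the interferon-response gene Usp18 floxed, and the other hosts were Usp18f/f LysM-Cre, so the controls carry the floxed allele too. LysM-Cre is expressed from the lysozyme locus Lyz2, which is active in macrophages, monocytes and neutrophils and in some dendritic cells. Each group was a pool of 4 tumors made into 1 droplet library with 3' tags and the labels give no age or sex of the hosts.

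Since each group is a single library, no test between groups could be made, and nothing here measures the spread between animals. In every pair of values the control library comes first and the library labelled knockout second. Levels are UMIs (unique molecular tags, each standing for 1 captured transcript) summed over a class of cells and divided by all UMIs of that class, per 1000000 UMIs (CPM). All intervals are exact 95% intervals (Poisson for CPM and its ratios, Clopper-Pearson for shares of cells), and they cover counting error only. A gene was called past the fold where the log2 ratio of (CPM + 5), labelled knockout over control, was at least 1 in size and the 2 libraries together held at least 20 UMIs. Because tags come from the 3' end and are not scaled by gene length, each gene was compared only with itself.

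The proteins fall into a few roles. Osteopontin (Spp1), fibronectin (Fn1), thrombospondin 1 (Thbs1), the TGF-beta-induced protein (Tgfbi) and versican (Vcan) are secreted into the matrix, where cells bind them through integrins, CD44, CD36 or CD47. Inhba encodes the subunit that pairs with itself to form activin A, a ligand of the TGF-beta family. Macrophage elastase (Mmp12), the membrane-bound collagenase Mmp14 and urokinase (Plau), which activates plasminogen, cut matrix. In tumors, monocytes and macrophages are a known source of these proteins alongside fibroblasts and tumor cells.

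The promoters of 6 members stand in a RefSeq table (GRCm38.p6), with 8 start sites. The 250 bases before each start were searched on both strands for 5 short motifs, namely AP-1 (TGANTCA), the interferon-stimulated response element or ISRE (GAAA, any 2 bases, then GAAA), PU.1 (GAGGAA), the hypoxia element (ACGTG) and NF-kB (GGG, any 5 bases, then CC). Of all 32851 promoters of the same length, 6.75% held the AP-1 letters, 2.98% the ISRE letters, 23.3% the PU.1 letters, 16.6% the hypoxia letters and 45.8% the NF-kB letters. The 3 printed below run 5' to 3' on the gene's strand, with every match in capitals and no matches overlapping. Inhba is shown because it was the member past the fold in both phagocyte classes, and Spp1 (the first of 2 starts) and Tgfbi because they held the ISRE letters. The windows are chr13:16011601-16011850 (plus strand) for Inhba, chr5:104434861-104435110 (plus strand) for Spp1 and chr13:56609336-56609585 (plus strand) for Tgfbi.
Inhba: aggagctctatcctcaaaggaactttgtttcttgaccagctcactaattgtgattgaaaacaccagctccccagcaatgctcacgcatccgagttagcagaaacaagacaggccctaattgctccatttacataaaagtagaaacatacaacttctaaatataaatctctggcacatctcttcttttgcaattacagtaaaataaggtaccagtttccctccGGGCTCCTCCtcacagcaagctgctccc
Spp1: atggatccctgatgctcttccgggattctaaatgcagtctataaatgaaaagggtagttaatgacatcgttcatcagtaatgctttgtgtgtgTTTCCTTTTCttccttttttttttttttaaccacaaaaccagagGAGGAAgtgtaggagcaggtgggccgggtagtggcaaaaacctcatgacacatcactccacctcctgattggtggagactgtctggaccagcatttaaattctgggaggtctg
Tgfbi: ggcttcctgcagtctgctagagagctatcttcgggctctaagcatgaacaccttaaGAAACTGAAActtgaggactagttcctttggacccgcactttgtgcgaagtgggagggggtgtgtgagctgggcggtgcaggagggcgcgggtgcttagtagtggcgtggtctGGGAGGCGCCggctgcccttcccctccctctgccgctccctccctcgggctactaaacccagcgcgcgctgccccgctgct
In Inhba the only match was to the NF-kB letters, 28 to 19 bases before the start. In Spp1 the ISRE letters lay on the reverse strand 157 to 148 bases before the start, and the PU.1 letters 113 to 108 bases before it. In Tgfbi the ISRE letters lay 194 to 185 bases before the start and the NF-kB letters 81 to 72 bases before it. Among the others, the second Mmp12 start held the AP-1 letters, the first Mmp12 start the PU.1 and NF-kB letters, Vcan the NF-kB letters, and Mmp14 the hypoxia letters. The second Spp1 start held none of the 5. A match is a string of letters and says nothing of binding.

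The libraries differed in ways that bear on every ratio. The control library held 7754 barcodes with a median of 2600 UMIs, and the library labelled knockout held 6063 with a median of 4455. After filtering, 6656 and 5451 cells were kept, and 8 barcode sequences occurred in both libraries. Among kept cells with UMIs of only Xist or only Y-linked genes, 36.5% were Xist cells in the first library and 86.1% in the second. Sex and genotype thus cannot be told apart in the sums. Xist and Y cells also come from different hosts within a pool, so sex cannot be told apart from host or tumor. Usp18 was higher, not lower, in the library labelled knockout, at 17.2 and 54.6 CPM in macrophage-gated and 22.1 and 125 CPM in monocyte-gated cells. The labels do not say which exons are deleted, and a 3' tag outside them checks nothing. Lyz2, the locus that carries Cre, fell from 7784 to 12.5 CPM in macrophage-gated and from 13144 to 29.1 CPM in monocyte-gated cells. The second library is called the library labelled knockout throughout.

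Cells were assigned to a class by the markers with the highest mean score. Macrophage-gated cells (C1qa, C1qb, C1qc, Ms4a7 and others) numbered 777 and 1154, monocyte-gated cells (Ly6c2, Ccr2, Chil3, F10 and others) 786 and 1120, and dendritic-gated cells 692 and 643. The dendritic class joined cDC1-, cDC2- and migratory DC-gated cells. The gate scores overlap, and 69 and 94 macrophage-gated, 94 and 135 monocyte-gated and 65 and 60 dendritic-gated cells lay within 0.25 of the score of another class. All 8 fibroblast markers were at 0 in these 3 classes in both libraries. The 4 erythroid markers together stood at 1.01 and 179 CPM in macrophage-gated, 1.10 and 303 CPM in monocyte-gated and 27.0 and 1.32 CPM in dendritic-gated cells, with a median of 0 per cell, and their part in the member ratios was not tested.

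Monocytes and macrophages carried these genes in different proportions, and for every member the direction was the same in both libraries. Vcan was 10.8-fold (9.78 to 11.9) higher in monocyte-gated than in macrophage-gated cells of the control library and 9.05-fold (8.42 to 9.74) in the second. Thbs1 was 7.77-fold and 6.76-fold higher in monocyte-gated cells, Fn1 3.64-fold and 3.63-fold, and Inhba 8.80-fold and 4.90-fold. Plau went the other way, with a level 4.90-fold lower and 2.83-fold lower in monocyte-gated cells. These 4 higher genes and Plau passed the fold in both libraries, Tgfbi passed it in the library labelled knockout alone (1.68-fold and 2.26-fold higher), and Spp1, Mmp12 and Mmp14 passed it in neither. Mmp12 and Mmp14 were also lower in monocyte-gated cells, with ratios of 0.617 and 0.810 for Mmp12 and 0.518 and 0.853 for Mmp14. Against that, 3.92% of 10618 genes and 4.36% of 11097 were past the fold upwards, and 6.27% and 6.42% downwards.

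**Figure D1:**
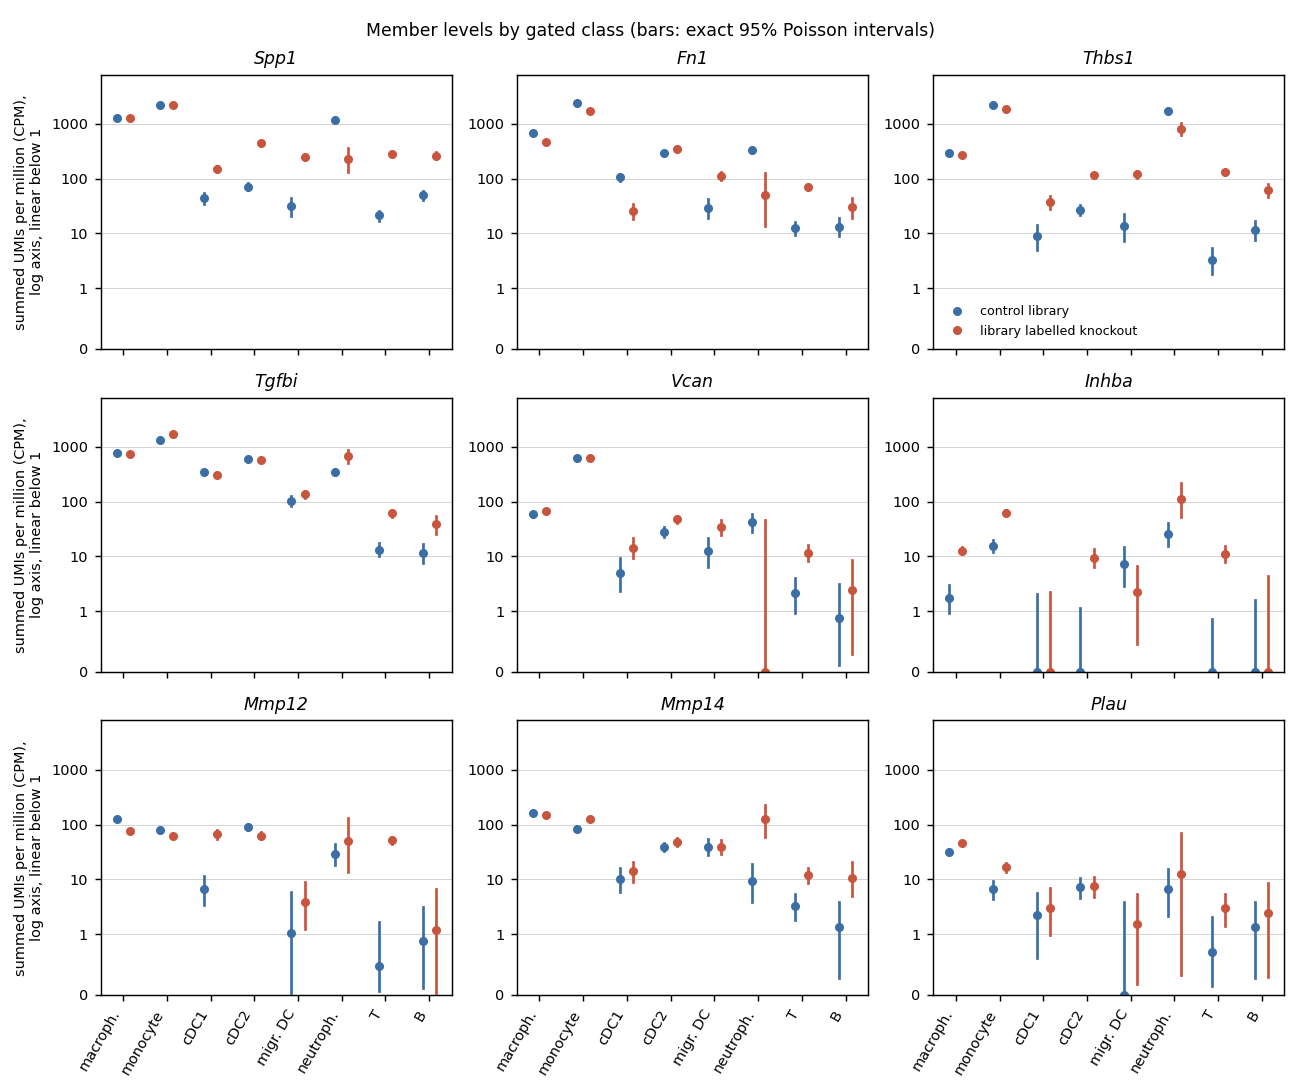
Summed level (CPM, log axis that is linear below 1) of the 9 genes in 8 gated classes of the control library (blue) and the library labelled knockout (red), with exact 95% Poisson intervals. Vcan, Fn1 and Thbs1 lie higher in monocyte-gated than in macrophage-gated cells in both libraries, and Plau lies lower.

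Between the libraries, most members fell short of the fold in the phagocytes, although several of their levels differed beyond counting error. In macrophage-gated cells 1 of the 9 members, Inhba, was past the fold upwards and 0 downwards, where 0.598% of 11209 genes measured were past it upwards, 0.161% downwards and 0.758% in either direction. In monocyte-gated cells it was again 1 member upwards, Inhba, and 0 downwards, against 1.75%, 0.241% and, in either direction, 1.99% of 9950 genes. In dendritic-gated cells 2 members, Spp1 and Thbs1, were past the fold upwards and 0 downwards, against 1.15%, 0.119% and, in either direction, 1.27% of 10909 genes. The median log2 ratio of the 9 members was -0.06, -0.03 and 0.24 in the 3 classes, and that of all genes measured was -0.02, -0.04 and -0.01. All 9 members met the minimum of 20 UMIs in each of the 3 classes.

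Spp1 (ENSMUSG00000029304, GRCm38 chr5:104435118-104441050, plus strand) encodes osteopontin, which binds CD44 and integrins. Its level in macrophage-gated cells was 1278 CPM (1253 to 1303) and 1310 CPM (1291 to 1330). In monocyte-gated cells it was 2237 and 2187 CPM, a ratio of 0.978 (0.953 to 1.00). Neither phagocyte sum differed by more than a few percent. More cells held the gene in the library labelled knockout, with 46.3% and 56.4% of macrophage-gated cells, and 28.8% and 40.7% of monocyte-gated cells. With all cells thinned to a depth of 1000 UMIs, to set depths equal, the shares were 25.3% and 31.5% of macrophage-gated and 18.4% and 25.6% of monocyte-gated cells. Spp1 UMIs thus lay in more cells at about the same sum, and the 10 cells with most of them held 34.3% and 21.9% of the monocyte-gated UMIs.

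Fn1 (ENSMUSG00000026193, chr1:71585520-71653200, minus strand) encodes fibronectin, which integrins bind. It stood at 676 CPM (658 to 694) and 474 CPM (462 to 485) in macrophage-gated cells, a ratio of 0.701 (0.676 to 0.727). In monocyte-gated cells the levels were 2460 and 1719 CPM, a ratio of 0.699 (0.681 to 0.718). Both ratios fell short of the fold, with log2 values of -0.51 and -0.52. The thinned share of monocyte-gated cells with Fn1 was 65.3% (61.9 to 68.7) and 50.6% (47.6 to 53.7), while in macrophage-gated cells it was 21.1% and 20.9%. Sex moved with this result: monocyte-gated Xist cells stood at 1437 and 1824 CPM, and Y cells at 2780 and 1779 CPM. The control library, with more Y cells, was the higher one in the sum, while among Xist cells the log2 ratio was 0.34, and the part of sex in the difference was not tested.

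Thbs1 (ENSMUSG00000040152, chr2:118111876-118127133, plus strand) encodes thrombospondin 1, a ligand of CD36 and CD47. Its level was 291 and 272 CPM in macrophage-gated cells. In monocyte-gated cells it was 2261 (2218 to 2306) and 1841 CPM (1808 to 1875), a log2 ratio of -0.30. Neither difference passed the fold, although the macrophage log2 ratio moved from -0.09 to 0.88 when classes came from named clusters and to 0.28 without the 10 top cells. Thinned shares ran the other way from the monocyte sum, at 38.7% and 43.1% of monocyte-gated cells, so no order is read from them, and stood at 9.92% and 15.4% of macrophage-gated cells. Platelets also hold thrombospondin 1. Of 5 platelet markers Ppbp was at 255 and 85.3 CPM in monocyte-gated cells, while Itga2b, Gp9, Gp1bb and Tubb1 had 0 to 7 UMIs in either library, and their part in the result was not tested.

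Tgfbi (ENSMUSG00000035493, chr13:56609523-56639562, plus strand) encodes an adhesive matrix protein induced by TGF-beta, and its UMIs were spread over most phagocytes. The 10 top cells held only 7.95% and 4.76% of its UMIs in macrophage-gated cells and 7.87% and 4.59% in monocyte-gated cells. The level was 786 and 754 CPM in macrophage-gated cells, and 1317 and 1703 CPM in monocyte-gated cells, where the ratio was 1.29 (1.25 to 1.33). The thinned share of monocyte-gated cells with a UMI was 54.2% (50.6 to 57.8) and 66.3% (63.4 to 69.1). Dendritic-gated cells also held the gene broadly, with 452 and 407 CPM and thinned shares of 28.5% and 23.0%.

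Vcan (ENSMUSG00000021614, chr13:89655312-89742509, minus strand), the gene of the large proteoglycan versican, stayed close between the libraries. Monocyte-gated cells stood at 632 CPM (609 to 656) and 616 CPM (597 to 636). The thinned share with a UMI was 34.0% and 31.9%. In macrophage-gated cells, where the gene is low, it stood at 58.6 and 68.1 CPM, and the 10 top cells held 38.6% and 20.5% of the UMIs. Among Xist macrophage-gated cells alone its log2 ratio was 1.03, just past the fold, with 78 UMIs in 188 cells and 722 UMIs in 670, and among Y cells it was -2.01.

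Inhba (ENSMUSG00000041324, chr13:16011851-16031621, plus strand), the activin A subunit, rose past the fold in both phagocyte classes. In macrophage-gated cells it had 14 UMIs in 6 of 777 cells and 172 UMIs in 30 of 1154. That is 1.77 CPM (0.966 to 2.96) and 12.8 CPM (10.9 to 14.8), 7.23-fold (4.19 to 13.5), and 1.39 on the log2 scale with the added 5 CPM. A single cell held 68 of the 172 UMIs, or 39.5%, and 10 cells held 83.1%. Without the 10 top cells of each library the log2 ratio was 0.52 and no longer past the fold. It also fell short when the mean of each cell's own CPM was used (0.92), when classes came from named clusters (0.99) and when only gated cells in a cluster of the same name were kept (0.99). Xist cells held 6 and 152 of the UMIs, and Y cells 4 and 1.

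In monocyte-gated cells Inhba had 71 UMIs in 33 of 786 cells and 396 UMIs in 61 of 1120. The level was 15.6 CPM (12.1 to 19.6) and 62.6 CPM (56.6 to 69.1), 4.02-fold (3.12 to 5.26), and 1.72 on the log2 scale. The share of cells with a UMI was 4.20% (2.91 to 5.85) and 5.45% (4.19 to 6.94), so the intervals of the shares overlap where those of the levels do not. The 10 top cells held 60.6% and 58.1% of the UMIs, and without them the log2 ratio was 1.49. Among Xist cells it was 1.75, with 19 UMIs in 187 cells and 363 in 852, and among Y cells 0.99, with 18 UMIs in 352 cells and 11 in 88. The Y cells fell just short of the fold on very few UMIs. B-cell-gated cells, which should lack the gene, held 0 UMIs in 1429 and 442 cells.

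**Figure D2:**
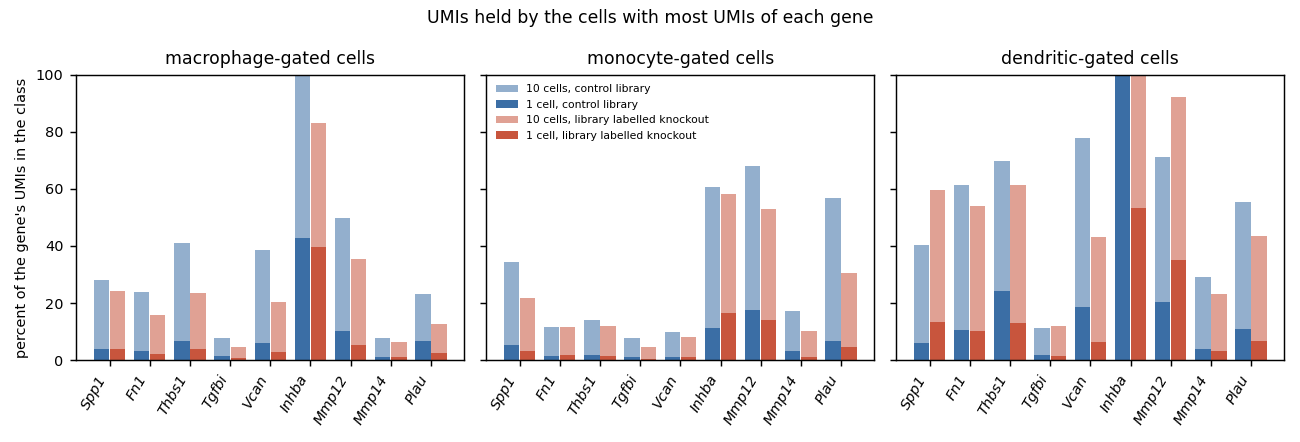
Percent of each gene's UMIs in a class held by the 1 cell (dark) and the 10 cells (pale) with most of them, in the control library (blue) and the library labelled knockout (red). Inhba and Mmp12 sums rest on few cells in all 3 classes, while Tgfbi is spread over many. Classes differ in size between the libraries, so 10 cells are not the same fraction of each.

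Mmp12 (ENSMUSG00000049723, chr9:7344381-7369499, plus strand), macrophage elastase, was lower in the sums of the library labelled knockout without passing the fold. Macrophage-gated cells stood at 128 CPM (120 to 136) and 76.9 CPM (72.2 to 81.7), a log2 ratio of -0.70, and monocyte-gated cells at 78.9 and 62.3 CPM. Few cells carried the sum: 11.3% and 12.8% of macrophage-gated cells had a UMI, and 10 of them held 49.8% and 35.6% of the UMIs. The macrophage ratio shrank to -0.34 without those cells and to -0.08 with classes from named clusters. The monocyte log2 ratio turned from -0.32 to 0.18 without the 10 top cells. With the mean of each cell's own CPM the macrophage log2 ratio was -1.06, past the fold.

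Mmp14 (ENSMUSG00000000957, chr14:54431612-54445364, plus strand), the membrane-bound protease that activates other collagenases, was broadly detected. Macrophage-gated cells stood at 163 and 150 CPM, and 61.7% and 61.1% of them had a UMI, or 15.3% and 15.8% after thinning. Monocyte-gated cells stood at 84.3 CPM (76.1 to 93.2) and 128 CPM (120 to 137), a ratio of 1.52 (1.35 to 1.72) that fell short of the fold. Their thinned shares were 6.21% and 10.3%. Among monocyte-gated Xist cells the level was 130 and 122 CPM, and among Y cells 62.6 and 171 CPM. That ratio among Y cells was past the fold, at 1.38 on the log2 scale, from 136 UMIs in 352 cells and 88 UMIs in 88.

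Plau (ENSMUSG00000021822, chr14:20836660-20843385, plus strand), the urokinase gene, was past the fold in favour of macrophage-gated over monocyte-gated cells in both libraries. It stood at 32.2 CPM (28.4 to 36.4) and 46.9 CPM (43.3 to 50.7) in macrophage-gated cells, 1.46-fold (1.26 to 1.69). In monocyte-gated cells it stood at 6.57 CPM on 30 UMIs and 16.6 CPM on 105 UMIs, 2.53-fold (1.67 to 3.93). The monocyte log2 ratio of 0.90 missed the fold with the added 5 CPM and passed it with an added 1 CPM. Thinned shares were 2.61% and 5.18% of macrophage-gated cells and 0.517% and 1.38% of monocyte-gated cells.

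**Figure D3:**
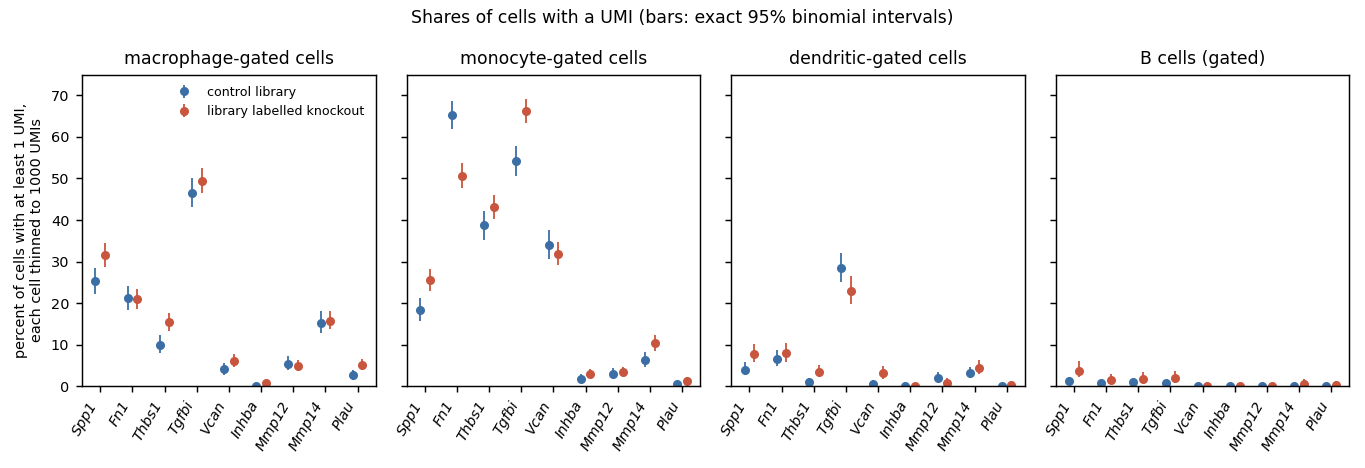
Percent of cells with at least 1 UMI of each gene after thinning every cell to 1000 UMIs, with exact 95% binomial intervals, in 3 myeloid classes and in B-cell-gated cells of both libraries. Shares of monocyte-gated cells with Fn1 and Tgfbi differ in opposite directions, at 65.3% and 50.6% for Fn1 and 54.2% and 66.3% for Tgfbi, and no gene exceeds 3.76% of B-cell-gated cells.

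Free RNA was gauged in B-cell-gated cells, which should lack most of these genes. After thinning to 1000 UMIs, 1.38% and 3.76% of B-cell-gated cells had a Spp1 UMI, with 1.02% and 1.65% for Thbs1, 0.871% and 1.41% for Fn1 and 0.871% and 1.88% for Tgfbi. These cells were shallower, with a median of 1511 and 1790 UMIs before thinning against 5643 and 5418.5 for monocyte-gated cells. The shares in phagocytes were many times higher for these 4 genes in both libraries. For Inhba, Mmp12 and Vcan, 0 of 425 thinned B-cell-gated cells of the second library were positive, which allows up to 0.706% of such cells with a UMI and does not limit how many express the gene.

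In dendritic-gated cells Spp1 and Thbs1 were higher in the library labelled knockout, and both sums rested on few cells. Spp1 went from 56.9 CPM (51.0 to 63.2) to 321 CPM (307 to 336), 5.65-fold (5.03 to 6.35). Thbs1 went from 19.3 to 95.4 CPM, 4.95-fold (4.04 to 6.10). The 10 top cells held 40.4% and 59.7% of Spp1 UMIs, and the same number held 69.6% and 61.3% of Thbs1 UMIs. The remaining cells still stood at 34.9 and 133 CPM for Spp1 and at 6.01 and 37.7 CPM for Thbs1. Thbs1 was not past the fold with classes from named clusters, where its log2 ratio was 0.96, and Spp1 was past it in the opposite direction among Y cells, at -1.70, with 207 UMIs in 408 cells and 8 UMIs in 62.

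Phagocyte markers moved with these top cells. The top 10 Spp1 cells had a median of 4.95 and 9.76 UMIs per 10000 of 6 phagocyte markers (C1qa, C1qb, C1qc, Chil3, F10 and Hp), while the other dendritic-gated cells had a median of 0 in both libraries. Of those 10 cells, 7 and 6 lay in clusters named for dendritic cells. These top cells were deep, with medians of 18504.5 and 13879.5 UMIs per cell, against 7854.5 and 8630 for all dendritic-gated cells. The part of depth in the Spp1 result was not tested. The 7 T-cell markers together were at 40.4 and 244 CPM in dendritic-gated cells, and their part in the result was not tested. Lymphocyte classes were also higher in the library labelled knockout: T-cell-gated cells went from 21.3 to 281 CPM for Spp1 and from 3.28 to 130 CPM for Thbs1, and B-cell-gated cells from 49.9 to 264 and from 11.5 to 61.0 CPM. Of the 221 Spp1 UMIs in B-cell-gated cells of that library, 1 cell held 88.7%. Whether free RNA takes part in the dendritic ratios was not tested.

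Within the dendritic class the counts were small. In cDC1-gated cells 3 of 7 members measured were past the fold upwards (Spp1, Thbs1 and Mmp12) and 1 downwards (Fn1), where 1.47% and 0.515% of 8735 genes were, 1.98% in either direction. A single cell held 98.2% of the 111 Mmp12 UMIs of the second library, and a single control cell 65.8% of the 190 Fn1 UMIs. In cDC2-gated cells 3 of 9 members were past it upwards (Spp1, Thbs1 and Inhba, the last with 0 and 29 UMIs) against 1.3% of 9870 genes, and 0 downwards against 0.213%, with 1.51% in either direction. In migratory DC-gated cells 4 of 6 were past it upwards (Spp1, Fn1, Thbs1 and Vcan) against 4.98% of 7650 genes, and 0 downwards against 0.693%, with 5.67% in either direction. Of the remaining members, Tgfbi in cDC2-gated cells stood at 613 and 577 CPM, and Mmp12, Mmp14 and Plau in all dendritic-gated cells at 50.6 and 51.3, 30.5 and 37.1, and 4.53 and 4.97 CPM. For Mmp12 the 10 top cells held 215 and 286 UMIs, and the remaining dendritic-gated cells stood at 14.95 and 4.08 CPM, past the fold downwards with a log2 ratio of -1.14.

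Clustering, done without the 9 members and without sex-linked, ribosomal and mitochondrial genes among others, split the phagocytes further. Cluster 3, monocyte-like and led by Cxcl3, Arg1, Egln3 and Hilpda, held 396 and 402 cells. Among the phagocyte clusters it had the highest levels of Spp1 (5652 and 5104 CPM), Thbs1 (4546 and 3300 CPM) and Inhba (57.8 and 173 CPM). Its Fn1 (2802 and 2523 CPM) and Vcan (542 and 646 CPM) were also the highest of these clusters. It held 90.6% and 61.4% of the phagocytes' Inhba UMIs, from 19.8% and 15.2% of the phagocytes. Cluster 6, macrophage-like and led by Ednrb, Ccl7, Ccl24 and Pf4, held 3029 and 3125 CPM of Spp1 and 2167 and 1436 CPM of Fn1. In contrast cluster 8, monocyte-like and led by Ace, Adgre4 and Treml4, stood at 7.72 and 17.9 CPM of Spp1, although its Fn1 was at 1477 and 900 CPM. Spp1 in clusters 3 and 6 thus differed more from that in cluster 8 than between the libraries within clusters 3, 6 or 8. The cluster 8 levels rest on 10 and 18 UMIs.

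Plau, and in the control library Mmp14, were highest in another cluster. Cluster 2, macrophage-like and led by Fcrls, Igf1, Vcam1 and C1q genes, held 64.2% and 60.4% of the phagocytes' Plau UMIs and 49.5% and 36.7% of their Mmp14 UMIs, from 25.0% and 21.8% of the cells. Mmp14 stood at 184 and 139 CPM there and at 133 and 202 CPM in cluster 3. Mmp12 was at 65.5 and 60.5 CPM in cluster 2 and at 422 and 372 CPM in cluster 3, which held 48.9% and 28.1% of its UMIs. In cluster 2, Fn1, Thbs1 and Vcan were low, at 59.5 and 66.1, 23.2 and 49.2, and 6.86 and 7.73 CPM. Cluster 1, monocyte-like and led by Dmkn, Cd177, Chil3 and Hp, had Tgfbi at 1605 and 1934 CPM and Vcan at 507 and 610 CPM but Inhba at only 1.56 and 13.6 CPM. Cluster 13, monocyte-like and led by the interferon-response genes Rsad2, Ifit3, Cxcl10 and Isg15, had 14 and 365 cells. In the larger set Spp1 stood at 2660 CPM, Thbs1 at 1171 CPM and Inhba at 73.7 CPM, and it held 23.1% of that library's phagocyte Inhba UMIs.

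**Figure D4:**
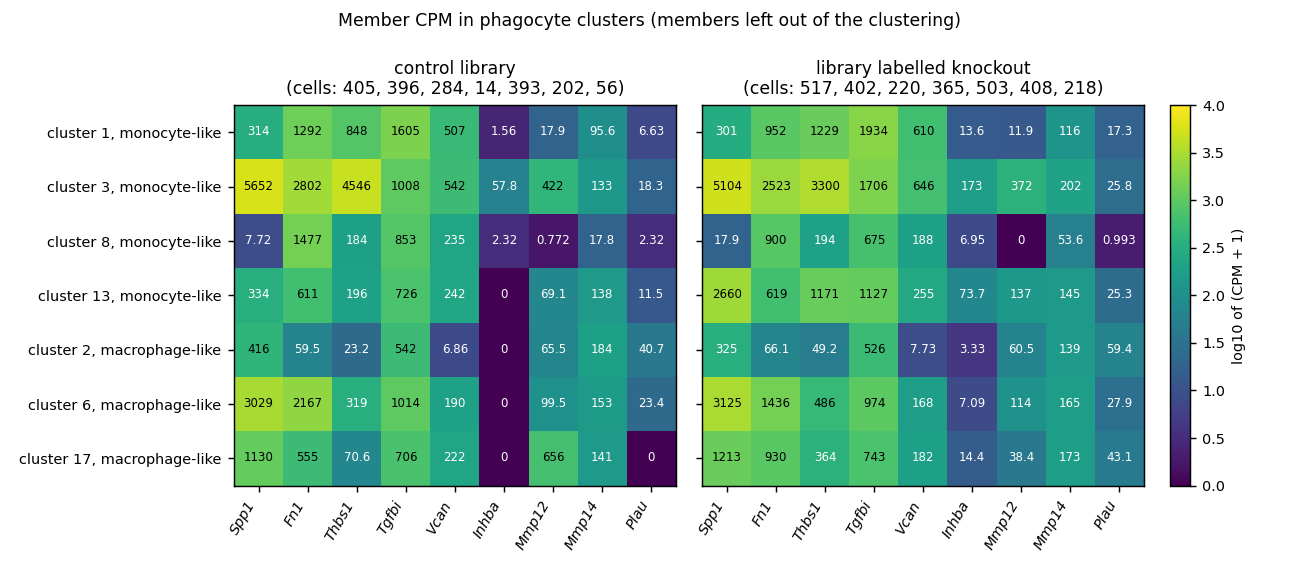
CPM of the 9 genes in the 7 phagocyte clusters of the control library (left) and the library labelled knockout (right), colored by log10 of (CPM + 1), with the cells of each cluster given from top to bottom in the panel titles. Spp1, Fn1, Thbs1, Vcan and Inhba are highest in cluster 3 in both libraries, and Plau in cluster 2. Cluster 13 has 14 control cells, and cluster 17 is shallow, with a median of 785 UMIs per cell.

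Cells of the 2 sexes lay in different clusters, and the member ratios differed with them. In the library labelled knockout 78.2% of 239 macrophage-gated Y cells were in cluster 2 and 11.7% in cluster 6, against 31.8% and 36.3% of 670 Xist cells. In the control library the shares were 48.8% and 24.5% of 400 Y cells and 60.6% and 18.1% of 188 Xist cells. Among Y macrophage-gated cells Spp1 stood at 1361 and 320 CPM, and among Xist cells at 1213 and 1910 CPM. The sum over all cells, near equal between the libraries, thus joined 2 ratios of opposite sign. Within cluster 2 Spp1 was lower in the library labelled knockout in cells of both sexes, at 626 and 393 CPM among Xist cells and 357 and 186 CPM among Y cells. Within cluster 6 it was 2583 and 3549 CPM among Xist cells and 3486 and 1689 CPM among Y cells, the last from 32 cells.

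**Figure D5:**
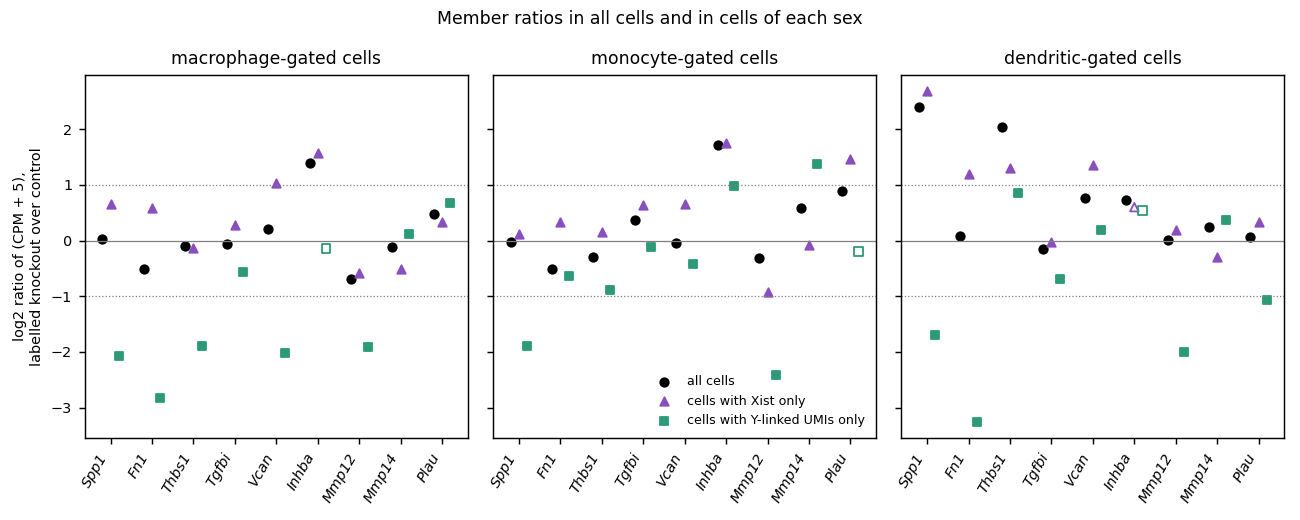
Log2 ratio of (CPM + 5), labelled knockout over control, of each gene in all cells (circles), cells with Xist UMIs only (triangles) and cells with Y-linked UMIs only (squares). Open symbols have under 20 UMIs, and dotted lines mark the fold. Spp1, Fn1 and Vcan lie above 0 among Xist and below 0 among Y macrophage-gated cells.

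Cluster 3 allows Inhba to be set side by side within 1 sex and 1 cluster. Among its Xist cells Inhba had 52 UMIs in 93 cells and 379 UMIs in 349, which is 99.6 CPM (74.4 to 131) and 189 CPM (170 to 209). With the added 5 CPM this difference fell short of the fold. Over all cells of cluster 3, 10 cells held 43.4% and 58.7% of the Inhba UMIs. The control Y cells of cluster 3 stood at 27.2 CPM (18.4 to 38.8) in 166 cells. Fewer than 20 Y cells of the second library lay in the cluster, so no level is given. Among the same Xist cells Fn1 stood at 1562 and 2514 CPM, Spp1 at 5851 and 5459 CPM and Thbs1 at 4053 and 3353 CPM. In cluster 1, Fn1 stood at 955 and 1007 CPM among Xist cells and at 1440 and 990 CPM among Y cells.

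Members were found together in some cells more often than their separate shares give. After thinning, 84 control macrophage-gated cells held both Spp1 and Fn1 where 41.0 would if the 2 were unrelated, and in the second library 130 did against 71.3. Fn1 and Vcan were held together by 23 cells against 6.56, and by 42 against 13.8. Fn1 and Plau went the other way, with 0 cells against 4.23 and 3 against 11.7. In monocyte-gated cells Thbs1 and Inhba shared 9 cells against 5.03, and 28 against 14.2. Cells of 1 library share their preparation, and these counts are a description.

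Across the 22 sums of a class and a library, the genes whose log2 levels ran most like those of each member were found among 11117 candidates. Spp1 ran most like Arg1, Pf4 and F7 (Pearson r 0.92, 0.91 and 0.91) and Fn1 like Ccl24 and Emp1 (0.93 and 0.92). For Thbs1 they were Clec4d, F10 and Cxcl3 (0.94, 0.94 and 0.92), for Tgfbi Pid1, Lrrc25 and Lgals3 (0.99, 0.97 and 0.96) and for Vcan Dmkn, Plcb1 and Gm9733 (0.94, 0.92 and 0.91). Inhba was nearest to Osm, Rhov and Tarm1 (0.89, 0.88 and 0.87). Among the proteases, Mmp12 was nearest to Atf3, F7 and Clec4a2 (0.87, 0.87 and 0.86), Mmp14 to Rai14, Idh1 and Parvb (0.92, 0.92 and 0.91) and Plau to Stab1, Adgre1 and Rab3il1 (0.93, 0.93 and 0.93). The sums of a library share its depth, and F10 and Adgre1 are themselves markers used in the gates.

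The receptors, inhibitors and other proteases around the members were followed in 6 lists of 82 genes, of which 56, 54 and 53 were measured in macrophage-, monocyte- and dendritic-gated cells. In macrophage-gated cells 0 of 56 were past the fold in either direction, where 0.758% of all genes were. In monocyte-gated cells 1 of 54 was past it upwards and 3 downwards, and in dendritic-gated cells 2 of 53 upwards and 0 downwards, to be read against the 1.75% and 0.241%, and the 1.15% and 0.119%, of all genes. Timp1, an inhibitor of metalloproteinases, rose in monocyte-gated cells from 25.0 to 59.1 CPM, 2.37-fold (1.91 to 2.95). Cd36, a thrombospondin receptor, fell there from 226 to 101 CPM, a ratio of 0.448 (0.405 to 0.495). Mmp9, a gelatinase, had 28 UMIs and 1 UMI there, a ratio of 0.0258 (0.00063 to 0.156). Both lower calls depended on the processing: neither gene was past the fold with a mitochondrial limit of 5%, Cd36 was not with classes from named clusters, and Mmp9 was not without each gene's 10 top cells.

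Among the receptors, Cd44, which binds osteopontin, stood at 284 and 303 CPM in macrophage-gated and 863 and 826 CPM in monocyte-gated cells. Plaur, the urokinase receptor, stood at 49.2 and 63.6 CPM and at 173 and 266 CPM, the latter 1.54-fold (1.41 to 1.68) and short of the fold. Of the adhesion receptors, 0 of 13 measured were past the fold in macrophage-gated cells and 1 of 14 in monocyte-gated cells. Among the activin and TGF-beta signalling genes it was 0 of 12 and 0 of 11. Of all genes, 0.758% and 1.99% were past the fold in either direction in these classes. The 1 adhesion receptor was Cd36, which was lower, where 0.241% of all genes in monocyte-gated cells were past the fold downwards. A count of 1 is too small to be read against these shares. In dendritic-gated cells the 2 genes past the fold were Ctsl, a lysosomal protease, at 39.6 and 97.9 CPM, and Slpi, a protease inhibitor, at 4.53 and 21.2 CPM with 92.6% and 90.6% of its UMIs in 10 cells. Neither was past the fold with classes from named clusters or without each gene's 10 top cells.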

How the data were processed

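Live CD45+ cells of 2 pools of 4 tumors were profiled in 1 droplet library each. The authors deposited raw UMI counts per gene and barcode, made with Cell Ranger 3.0.1 against mm10, per the submitters' processing notes. How barcodes were called as cells is not given in the sources used here. Gene positions come from GENCODE on GRCm38, the same assembly, and 27645 of 27998 gene IDs matched it.

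Kept barcodes had 200 genes or more and no more than 10% of UMIs from mitochondria, after doublet removal by Scrublet in scanpy 1.11.5 (481 and 294 barcodes removed). A class was the highest mean z-score of its markers, at least 0.25 with at least 2 markers detected, and macrophage and monocyte also needed a general phagocyte marker. Counts were summed per class and library, with a pseudocount of 5 CPM for log2 ratios. Clusters came from Leiden (leidenalg 0.10.2) at resolution 1 on 2000 variable genes, 30 components and 15 neighbors, with 146 genes left out. For shares, each cell was thinned to 1000 UMIs and shallower cells were left out: 11 and 73 macrophage-gated, 13 and 32 monocyte-gated, 11 and 26 dendritic-gated and 51 and 17 B-cell-gated cells. The summing and interval code was tested on simulated data. Class depths were 7922361 and 13466764 UMIs for macrophage-gated, 4565578 and 6328404 for monocyte-gated and 5962690 and 6038312 for dendritic-gated cells.

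The named genes are the 9 members, any gene of the 6 pathway lists, the 3 genes nearest each member and the markers that check classes. The members and lists were chosen with earlier results of these data known. The 6 phagocyte markers set beside dendritic top cells, and the levels by sex within clusters, were chosen after values were seen. Some genes that this rule names are not reported here.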

Additional observations from a re-analysis of the deposited data

Results flagged for a closer look

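For several genes the ratio between the libraries ran one way among cells with Xist UMIs and the opposite way among cells with Y-linked UMIs. These differences between the sexes were not tested, since each library is 1 pool. All values are log2 ratios of (CPM + 5), labelled knockout over control, with the Xist cells first.

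In macrophage-gated cells the pair was 0.65 and -2.07 for Spp1, 0.59 and -2.83 for Fn1, 0.28 and -0.57 for Tgfbi, and 1.03 and -2.01 for Vcan. In monocyte-gated cells it was 0.11 and -1.90 for Spp1, 0.34 and -0.64 for Fn1, 0.15 and -0.90 for Thbs1, and 0.65 and -0.42 for Vcan. In dendritic-gated cells it was 2.69 and -1.70 for Spp1 and 1.20 and -3.25 for Fn1. The smallest groups behind them are 88 monocyte-gated and 62 dendritic-gated Y cells of the library labelled knockout, and 95 dendritic-gated Xist cells of the control library.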

How the results depend on the processing

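No paired analysis was possible because each group is 1 library. Over the alternatives, 74 counts of members past the fold stayed near their value and 22 moved, and for pathway genes 68 stayed and 28 moved. Of the log2 ratios of members, 293 stayed within their counting interval and 130 moved. The remaining 1, Spp1 in dendritic-gated cells, was past the fold in the main setting and changed sign, to -1.70 among Y cells. Among those that moved, some that first fell short of the fold passed it with the opposite sign among Y cells. For example, macrophage-gated Spp1 went from 0.04 to -2.07, macrophage-gated Vcan from 0.20 to -2.01 and dendritic-gated Fn1 from 0.09 to -3.25. The causes were not tested.

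Members past the fold upwards in macrophage-gated cells were 1, and 0 with the mean of cell CPM, with named clusters, among Y cells, without the 10 top cells and with only cells in a cluster of the same name, and 2 among Xist cells. Downwards they were 0, and 1 with the mean of cell CPM and 5 among Y cells. In monocyte-gated cells they were 1 upwards, and 2 (Inhba and Plau) with a mitochondrial limit of 5%, a pseudocount of 1 CPM, the mean of cell CPM, Xist cells, without the 10 top cells and with B-cell UMIs subtracted. Downwards they were 0, and 2 among Y cells. In dendritic-gated cells they were 2 upwards, and 4 with the mean of cell CPM, 1 with named clusters, 4 among Xist and 0 among Y cells. Downwards they were 0, and 4 among Y cells, 1 without the 10 top cells and 1 with only cells in a cluster of the same name.

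Pathway genes past the fold upwards in macrophage-gated cells were 0, and 3 among Xist cells. They were 1 with a mitochondrial limit of 5%, a pseudocount of 1 CPM, named clusters, without the 10 top cells, with 5% free RNA or B-cell UMIs subtracted and with clusters of the same name. Downwards they were 0, and 2 with a pseudocount of 1 CPM, 2 among Xist and 1 among Y cells. In monocyte-gated cells they were 1 upwards, and 2 with a mitochondrial limit of 5%, named clusters or clusters of the same name and 4 among Xist cells. Downwards they were 3, and 1 with a mitochondrial limit of 5%, with named clusters and without the 10 top cells, and 5 among Y cells. In dendritic-gated cells they were 2 upwards, and 5 with a pseudocount of 1 CPM, 1 without doublet removal and with clusters of the same name, and 0 with named clusters, with a score margin of 0.25 over the next class, among Y cells and without the 10 top cells. Downwards they were 0, and 1 among Xist and 8 among Y cells.

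The B-cell subtraction and the clusters of the same name were alternatives chosen after seeing the data. A single library per group leaves the spread between animals unmeasured, Inhba and Plau are limited by UMIs in monocyte-gated Y cells (18 and 11, 16 and 3), and 36 neutrophil-gated cells limit that class in the library labelled knockout.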

Other observations

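Classes outside the phagocytes held some members too. Control neutrophil-gated cells (511) stood at 1697 CPM (1604 to 1793) of Thbs1, with 34.1% of cells holding a UMI and 33.7% of the UMIs in 10 cells. Their Spp1, at 1173 CPM, had 39.5% of its UMIs in 1 cell. The library labelled knockout had 36 such cells, at 822 CPM of Thbs1 and 228 CPM of Spp1, the former with 96.9% of 65 UMIs in 10 cells. Melanoma-gated cells, which passed the CD45+ sort in small numbers (153 and 378, with medians of 50409 and 2851.5 UMIs), stood at 147 and 129 CPM of Mmp14 and 74.5 and 86.5 CPM of Spp1. Their Vcan and Tgfbi stood at 2.17 and 5.91 CPM and at 6.37 and 11.4 CPM.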
